A study of Mus musculus with 9 samples.

Results

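The respiratory chain and ATP synthase of the inner mitochondrial membrane were examined as a set of 92 genes, out of 23946 in the deposited expression table, in mouse CD8 T cells. The genes were taken by symbol alone, as all rows that begin with Nduf, Uqcr or Atp5, the Sdh genes a to d, and the Cox genes 4 to 8. The rule itself uses no measured value. By textbook role they are 36 subunits of complex I, 8 assembly factors of complex I, 4 subunits of complex II, 8 of complex III, 20 genes of complex IV and 16 of complex V. Symbols follow the table: Ndufa4 is counted with complex IV, where its protein sits, and Atp5sl, now named Dmac2, is counted with complex I assembly.

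Complex I (NADH dehydrogenase) and complex II (succinate dehydrogenase) feed electrons into ubiquinone, complex III passes them to cytochrome c, and complex IV (cytochrome c oxidase) hands them to oxygen. Complexes I, III and IV pump protons, and complex V, the ATP synthase, uses the resulting gradient to make ATP. Naive T cells draw most of their ATP from this route, and T cells that enter division enlarge their mitochondria. All genes of the set are encoded in the nucleus, and the subunits encoded by mitochondrial DNA were not analysed here.

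RNA was sequenced from 9 libraries, 3 per group. DKO cells carried the genotype Tcf1-/-Lef1-/- (Tcf1 is the protein of the gene Tcf7, and both proteins are DNA-binding factors of T cells), CTCF KO cells carried CTCF-/- (CTCF is a DNA-binding protein that shapes chromatin loops), and wild-type (WT) cells had neither deletion. Donors of every group carried hCD2-Cre, a Cre recombinase driven by human CD2 sequences that is active in lymphocytes, and a Rosa26 reporter that turns on GFP after Cre acts, with floxed target genes in the DKO and CTCF KO donors. Naive splenic CD8 T cells labelled with the division dye CTV spent 72 h in Rag1 KO hosts, which lack T and B cells of their own, and cells positive for CTV, TCRbeta, GFP and CD8 were then sorted from the host spleens. The labels give neither the ages of the mice nor whether a group's libraries stem from different mice. Any p-value here therefore refers to the scatter among the libraries, which may be technical.

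Values are FPKM (fragments per kilobase of transcript, corrected for library size), a level per transcript length, and the depth of the libraries is unknown. The sum of all FPKM lay at 629663 to 656898 in DKO, 655811 to 677889 in CTCF KO and 677932 to 702470 in WT libraries. Markers of the sorted cells were high, with Cd8b1 at 1527 to 1945 FPKM and Cd4 at no more than 0.985. Of 8 T cell markers 3 were called lower and 4 higher in DKO against WT, where 21.9% and 18.5% of all tested genes were. In CTCF KO against WT 0 of the 8 were lower and 2 higher, where 6.37% and 5.78% of all tested genes were. The targeted genes went against their labels in part: Ctcf averaged 18.3 FPKM in libraries labelled CTCF KO and 23.9 in WT (-0.33 on the log2 scale, adjusted p = 0.319), Tcf7 averaged 342 in libraries labelled DKO and 257 in WT (0.42), and Lef1 averaged 90.7 in DKO and 346 in WT (-1.92). A level over the whole gene does not show whether the deleted exons were read. Every direction given below is that of the libraries so labelled. The summed FPKM of 4 Y-linked genes was 90.0 to 101 in CTCF KO libraries, at most 0.742 in DKO and at most 2.03 in WT, so the sex of the donors and the CTCF KO label cannot be told apart. Among the set, Ndufa1, Ndufb11 and Cox7b are X-linked. Neutrophil markers (7 listed) summed to 0.841 to 1.54 FPKM in DKO, 15.1 to 18.8 in CTCF KO and 43.5 to 56.7 in WT, with Elane at 0 in every library and the other 6 called lower in both DKO and CTCF KO against WT. B cell markers (5 listed, 2 tested) summed to 99.5 to 118 FPKM in DKO, 34.1 to 37.7 in CTCF KO and 58.2 to 62.1 in WT, NK cell markers (4) to 2.79 to 3.18 in DKO, 1.52 to 3.68 in CTCF KO and 9.58 to 15.6 in WT, and erythroid markers (5) to 90.0 to 107 in DKO, 69.4 to 75.0 in CTCF KO and 67.4 to 73.4 in WT. In none of these 3 lists was a marker at 0 in every library. Sums of macrophage and monocyte markers (6) overlapped between all groups, at 78.3 to 91.0 in DKO, 82.7 to 90.2 in CTCF KO and 79.8 to 94.4 in WT. The part of such cells in the results below was not tested.

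RNA for the respiratory chain and ATP synthase was abundant and was lower in DKO than in WT across all 5 complexes. The 92 genes summed to 25046, 26357 and 24825 FPKM in the DKO libraries, 28506, 30298 and 29359 in the CTCF KO libraries, and 33336, 31996 and 31207 in the WT libraries. The 3 groups did not overlap, with DKO lowest and CTCF KO between DKO and WT. As a share of a library's total FPKM, the set made up 3.94% to 4.01% in DKO, 4.35% to 4.47% in CTCF KO and 4.60% to 4.75% in WT. Group means were 25409 ± 828 in DKO, 29388 ± 897 in CTCF KO and 32180 ± 1076 in WT (SD, n = 3 each), a difference from WT of -21.0% in DKO and of -8.68% in CTCF KO. In bulk RNA, fewer cells of a kind and less RNA per cell cannot be told apart.

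**Figure D1:**
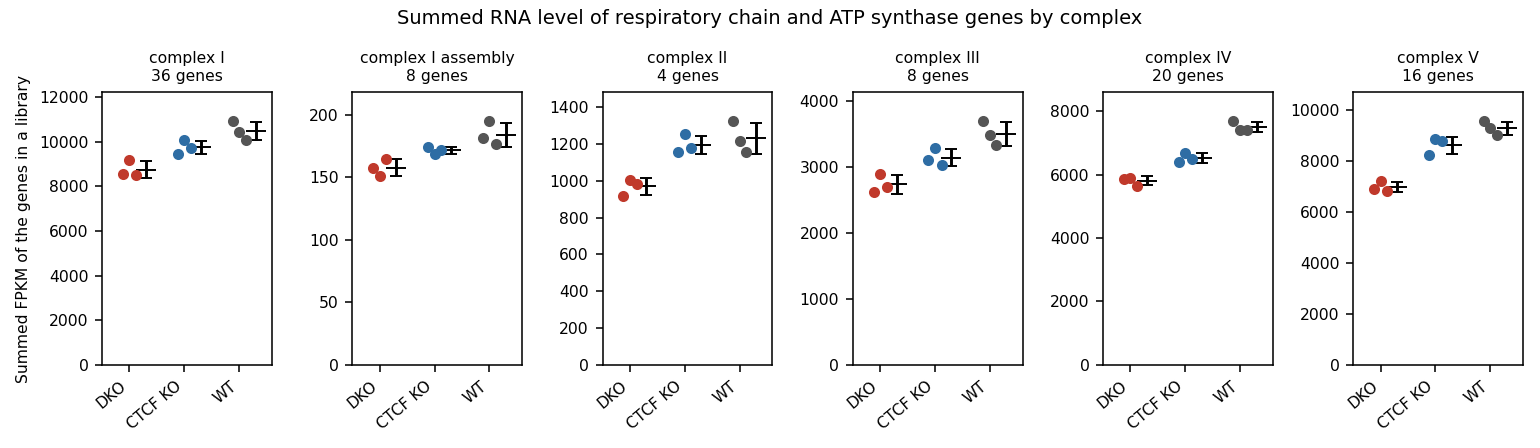
Summed FPKM of the genes of each complex (vertical axis, from 0) in DKO, CTCF KO and WT libraries (points), with the mean and SD of each group (bar, n = 3). In each panel every DKO library lies below every WT library, and complex V sums to 6819 to 7211 FPKM in DKO against 9042 to 9553 in WT.

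Of the 92 genes, 87 reached 1 FPKM in at least 3 of the 9 libraries and were tested among 10172 genes, and none of the 87 passed this filter through 1 group only. The other 5, all of them isoforms or paralogs of complex IV known from muscle, testis, lung or hypoxic cells, stayed below it: Cox4i2 reached 0.539 FPKM, Cox8c 0.484 and Cox7b2 0.313, and Cox8b and Ndufa4l2 were listed at 0 in every library. Changes are log2 fold changes on log2(FPKM + 1), each gene was called higher or lower at an adjusted p under 0.05 (limma, all adjusted p-values below), and "tested" refers to this model.

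In DKO against WT, 57 of the 87 tested genes fell and 3 rose, where 21.9% of all tested genes were called lower and 18.5% higher (40.4% in either direction). The libraries of the DKO and WT groups did not overlap for 63 genes that were lower in DKO, against 27.3% of all tested genes. The median log2 fold change of the 87 was -0.32 and that of all tested genes was 0.01. Highly expressed genes were lower in DKO in general: among the 1313 tested genes with a mean of at least 100 FPKM, 46.0% were called lower and the median was -0.19. At that level 55 of 72 members were lower, with a median of -0.33. When each library was rescaled to the same sum, 45 members were lower and 4 higher, against 1746 and 2619 of all tested genes.

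Transcript length moved with the same difference. The tested members had a median transcript length of 870.5 bases against 2778 for other tested genes, and 57 of them lay in the shortest of 10 equal bins of tested genes by length. Other genes of that bin had a median of -0.19 and 38.1% of them were lower, while the members in it had a median of -0.35 and 40 of 57 were lower. When trends of every library with transcript length and GC content were removed, an adjustment chosen after the data were seen, 19 members were lower and 6 higher in DKO, and 17 of the original 57 were among the 19. In that fit 1983 of 9791 genes were lower and 1519 higher, so the share of lower members was near that of all genes. The median of the members was then -0.0826, against -0.014 for all genes of that fit, and under quantile normalization the median of the members was -0.17. Of the members given with values below, Atp5b, Atp5c1, Atp5g1, Atp5g2, Atp5g3, Atp5j, Cox4i1, Cox6c, Ndufab1, Ndufs1, Sdhb and Uqcrq were still called lower against WT after removal of the length and GC trends, and Ndufs4 and Atp5s higher. Ndufa3, Uqcrb and Cox6b1 turned from lower to called higher, and the other calls of these members in DKO against WT were lost. The authors' deposited table, which holds their own q-values, had 29 members lower and 0 higher at a q-value under 0.05.

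**Figure D2:**
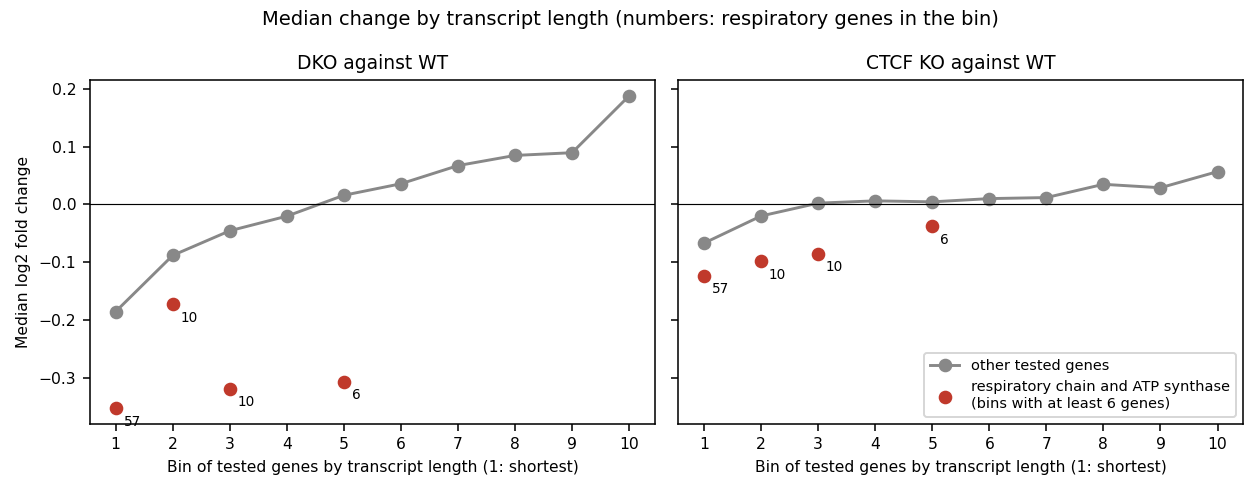
Median log2 fold change (vertical axis) of tested genes in 10 bins of transcript length (horizontal axis, 1 is the shortest), for DKO against WT and CTCF KO against WT, with members (red, number of genes beside the point, bins with at least 6 members) and other tested genes (grey line). In DKO against WT the other genes run upward with length, at -0.19 in the shortest bin, and the members lie below them at -0.35 there, while in CTCF KO against WT the values there are -0.12 for members and -0.07 for other genes.

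In CTCF KO against WT, 16 members fell and none of the 87 rose, where 6.37% of all tested genes were called lower and 5.78% higher (12.2% in either direction). The CTCF KO and WT libraries did not overlap for 29 members that were lower in CTCF KO, against 14.4% of all tested genes. Among genes of at least 100 FPKM 11.9% were lower, and 15 of 72 members. At an unadjusted p under 0.05 the members that were higher numbered 1, Ndufs7, and the authors' deposited q-values also called 0 higher. The median of the members was -0.11, against 0.01 for all tested genes and -0.04 for genes of at least 100 FPKM. Rescaled to the same sum, 14 members were lower and 1 higher, against 564 and 850 of all tested genes. With length and GC trends removed the median of the members was -0.0068 and 4 of them were lower (Cox5b, Ndufa6, Ndufab1 and Ndufaf3). In that fit 421 of 9791 genes were lower, and the median of all genes was 0.0277. Under quantile normalization the median of the members was -0.0553, and the authors' deposited q-values called 2 members (Ndufa4 and Ndufaf3). Without CTCF KO library 1, or without WT library 2, 10 members were lower.

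In DKO against CTCF KO, 41 members fell and 4 rose, where 21.8% of all tested genes were called lower and 16.2% higher (38.0% in either direction). The DKO and CTCF KO libraries did not overlap for 49 members that were lower in DKO, against 28.3% of all tested genes. Among genes of at least 100 FPKM 40.8% were lower, and 39 of 72 members. The median of the members was -0.21 and that of all tested genes was -0.02. With length and GC trends removed the median of the members was -0.0847, and 16 of them were lower and 8 higher. In that fit 2275 of 9791 genes were lower and 1386 higher, with a median of -0.0663, so lower members made up no larger share than lower genes in general. Of the falls given with values below, those of Atp5b, Atp5g3, Cox6a2, Cox6c, Ndufa8, Atp5o, Sdha, Sdhb and Uqcrq were still called. Under quantile normalization the median of the members was -0.12, and leaving out DKO library 1, CTCF KO library 2 or CTCF KO library 3 left 27 members lower in each case. The comparisons share their libraries pairwise, so their values are set side by side without a test of likeness.

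**Figure D3:**
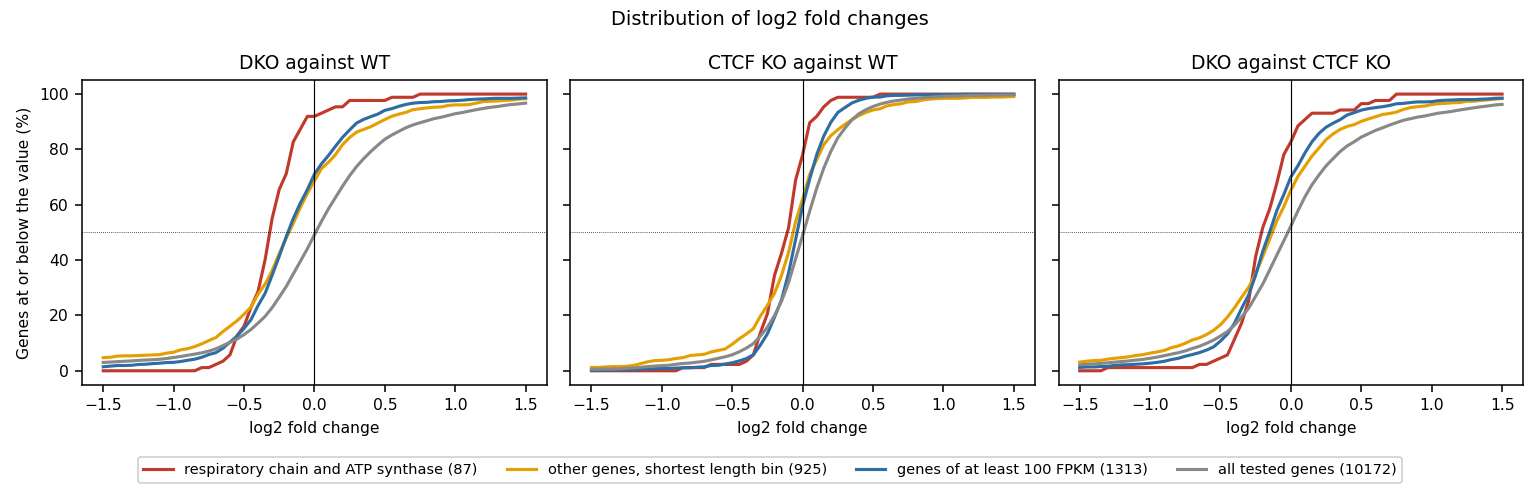
Share of genes (vertical axis, %) with a log2 fold change at or below the value on the horizontal axis, for the 87 tested members, other genes of the shortest length bin (925), genes of at least 100 FPKM (1313) and all tested genes (10172), in each of the 3 comparisons. The curve of the members crosses the middle at -0.32 in DKO against WT, at -0.11 in CTCF KO against WT and at -0.21 in DKO against CTCF KO.

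The promoters of these genes are known to be bound by NRF1, by ETS factors such as GABP, and by YY1, and motifs of these factors were searched on both strands in RefSeq promoters (GRCm38.p6, 250 bases before to 50 after the start). Promoters were found for 76 of the 92 members, 82 promoters in all. The NRF1 motif CGCATGCG occurred in 11 of the 82 (13.4%, against 1.87% of all 32851 promoters), the ETS motif CCGGAAG in 17 (20.7% against 8.86%) and the YY1 motif AAGATGGC in 12 (14.6% against 2.75%). A TCF/LEF motif, ATCAAAG, occurred in 1 (1.22% against 3.73%), and a part of the CTCF motif, AGGGGGC, in 11 (13.4% against 10.6%). Among the 20248 promoters of genes in the expression table, the shares were 2.56% for NRF1, 11.5% for ETS, 3.11% for YY1, 3.24% for TCF/LEF and 13.25% for the CTCF part, so that the last was practically that of the members. In 0 of the 82 did matches of 2 different motifs overlap. Among tested members with a promoter, 23 of 48 called lower in DKO held NRF1, ETS or YY1, as did 9 of 23 not called and 1 of 3 called higher. These are matches of letters and show no binding. Sequences from 170 bases before to 30 after the start are shown on the strand of the gene, with matches of the 5 motifs in capitals. For each complex this is the gene called lower with the smallest adjusted p in DKO against WT among those with an NRF1, ETS or YY1 match. The 3 genes that rose are shown as well. Where a gene had several promoters, the promoter with the most matches is shown.
Ndufc1 (complex I, lower, chr3:51408926-51409125, minus strand, CTCF core and YY1): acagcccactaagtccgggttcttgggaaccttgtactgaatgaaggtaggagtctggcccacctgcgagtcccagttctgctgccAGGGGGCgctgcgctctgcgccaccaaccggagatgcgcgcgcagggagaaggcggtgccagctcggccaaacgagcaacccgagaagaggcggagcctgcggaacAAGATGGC
Sdhb (complex II, lower, chr4:140961101-140961300, plus strand, ETS): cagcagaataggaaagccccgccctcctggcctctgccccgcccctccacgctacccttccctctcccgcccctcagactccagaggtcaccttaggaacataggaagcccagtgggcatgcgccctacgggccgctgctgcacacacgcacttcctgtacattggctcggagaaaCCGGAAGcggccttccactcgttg
Uqcrh (complex III, lower, chr4:116075041-116075240, minus strand, ETS on the opposite strand): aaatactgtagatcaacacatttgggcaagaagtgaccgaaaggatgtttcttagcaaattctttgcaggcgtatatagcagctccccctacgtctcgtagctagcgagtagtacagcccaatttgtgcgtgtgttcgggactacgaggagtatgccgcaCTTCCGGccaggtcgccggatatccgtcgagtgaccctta
Cox6b1 (complex IV, lower, chr7:30626085-30626284, minus strand, ETS on the opposite strand): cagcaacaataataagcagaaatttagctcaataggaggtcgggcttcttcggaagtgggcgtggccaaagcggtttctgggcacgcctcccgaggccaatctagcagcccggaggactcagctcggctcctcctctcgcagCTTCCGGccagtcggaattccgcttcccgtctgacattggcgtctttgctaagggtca
Atp5j (complex V, lower, chr16:84834947-84835146, minus strand, NRF1, YY1 and ETS): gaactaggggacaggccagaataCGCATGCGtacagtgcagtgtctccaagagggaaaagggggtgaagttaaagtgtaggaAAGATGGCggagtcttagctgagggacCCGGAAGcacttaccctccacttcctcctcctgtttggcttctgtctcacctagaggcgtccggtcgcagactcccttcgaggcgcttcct
Ndufs4 (complex I, higher, chr13:114388065-114388264, minus strand, no match in this window): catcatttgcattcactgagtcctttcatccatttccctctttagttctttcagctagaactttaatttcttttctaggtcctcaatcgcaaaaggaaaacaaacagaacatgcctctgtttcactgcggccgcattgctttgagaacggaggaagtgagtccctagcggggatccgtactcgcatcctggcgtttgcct
Ndufa13 (complex I, higher, chr8:69901991-69902190, minus strand, no match in this window): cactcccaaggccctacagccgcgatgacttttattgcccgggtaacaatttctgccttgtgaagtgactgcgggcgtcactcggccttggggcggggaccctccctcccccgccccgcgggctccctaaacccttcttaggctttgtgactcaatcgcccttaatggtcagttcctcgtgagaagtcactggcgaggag
Atp5s (complex V, higher, chr12:69724775-69724974, plus strand, no match in this window): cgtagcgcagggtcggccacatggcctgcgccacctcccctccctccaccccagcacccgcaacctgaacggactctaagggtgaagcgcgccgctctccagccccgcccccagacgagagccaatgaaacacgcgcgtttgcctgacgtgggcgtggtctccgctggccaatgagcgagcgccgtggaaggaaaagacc

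Complex I subunits were lower in DKO, and the accessory subunits included the largest falls. Its 36 genes summed to 8557, 9183 and 8507 FPKM in DKO, 9463, 10066 and 9698 in CTCF KO, and 10909, 10417 and 10090 in WT. In DKO against WT 22 fell and 2 rose (median -0.28). Those that fell were 4 of the 7 core subunits, which carry the flavin, the iron-sulfur clusters or the quinone site, and 18 of the 29 accessory subunits. Of all tested genes 21.9% were lower and 18.5% higher, and of those of at least 100 FPKM 46.0% were lower. Ndufc2, an accessory subunit of the membrane arm, had 127, 114 and 111 FPKM in DKO, 168, 139 and 159 in CTCF KO, and 182, 176 and 180 in WT. Its DKO libraries lay below all others, and the log2 fold change against WT was -0.61 (SE 0.08, adjusted p = 0.000285). Its neighbour in the membrane arm Ndufc1, with a YY1 match in the window shown, had 236, 219 and 227 FPKM in DKO, 260, 250 and 285 in CTCF KO, and 315, 320 and 370 in WT. The 3 groups of Ndufc1 did not overlap, and it fell by 0.56 in DKO (adjusted p = 0.000401) and by 0.34 in CTCF KO (adjusted p = 0.0191).

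Ndufab1, the mitochondrial acyl carrier protein, which serves fatty acid synthesis as well as complex I, had 113, 109 and 101 FPKM in DKO, 106, 115 and 109 in CTCF KO, and 152, 140 and 155 in WT. DKO and CTCF KO overlapped each other and both lay below WT, with falls of 0.46 in DKO (adjusted p = 0.000501) and 0.43 in CTCF KO (adjusted p = 0.00273). Ndufb6, a membrane-arm subunit, had 244, 270 and 269 FPKM in DKO, 318, 328 and 362 in CTCF KO, and 414, 389 and 349 in WT. It fell by 0.55 in DKO (adjusted p = 0.000523). Of its transcript 34.1% is shared with another gene, and whether this affected the placing of its reads was not tested. Of the core subunits, Ndufs1, which holds iron-sulfur clusters, had 88.6, 97.5 and 102 FPKM in DKO, 120, 114 and 125 in CTCF KO, and 138, 127 and 112 in WT. It was lower in DKO by 0.38 (adjusted p = 0.00672) and remained called in every alternative fit, as did Ndufab1. The authors' q-values called Ndufs1 lower against WT but not Ndufab1. Ndufs1 is named outside the rule for naming genes, after its values were seen.

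In CTCF KO against WT 5 complex I subunits fell (median of the 36 -0.07, and 0.02 with length and GC trends removed). All 5 were accessory, as are 29 of the 36. The 5 make up 13.9%, near the 11.9% lower among genes of at least 100 FPKM, where 6.37% of all tested genes were lower. Besides Ndufab1 and Ndufc1, the 5 included Ndufa6, Ndufa3 and Ndufb5. Ndufa6, a subunit of the peripheral arm, had 237, 238 and 210 FPKM in DKO, 198, 219 and 204 in CTCF KO, and 264, 252 and 271 in WT. CTCF KO lay below WT by 0.34 (adjusted p = 0.00962), and DKO by 0.20 (adjusted p = 0.0347), a difference that turned to 0.14 with length and GC trends removed. Ndufa3, which had the highest mean level among complex I genes, had 863, 926 and 840 FPKM in DKO, 800, 907 and 835 in CTCF KO, and 954, 1013 and 1027 in WT. It fell by 0.19 in DKO and 0.24 in CTCF KO (adjusted p = 0.0347 and 0.0353), but with length and GC trends removed it was higher in DKO by 0.25 (adjusted p = 0.00481).

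Between the knockouts, 16 of the 36 complex I subunits (44.4%) were lower and 2 higher in DKO than in CTCF KO. Of all tested genes 21.8% were lower and 16.2% higher, and of those of at least 100 FPKM 40.8% were lower, near the share of complex I. Ndufa8, Ndufb3 and Ndufa7, accessory subunits, and Ndufc2 led the complex I subunits that fell. Ndufa8 had 194, 208 and 191 FPKM in DKO, 248, 250 and 238 in CTCF KO, and 252, 231 and 234 in WT, so that CTCF KO overlapped WT and DKO lay below both. Its log2 fold change was -0.31 against CTCF KO (adjusted p = 0.00219) and -0.27 against WT (adjusted p = 0.0041). Ndufb3 averaged 215 ± 9.85 FPKM in DKO, 267 ± 12.3 in CTCF KO and 271 ± 10.3 in WT, and Ndufa7 averaged 401 ± 17.6 in DKO, 492 ± 5.74 in CTCF KO and 485 ± 32.2 in WT. Both were lower in DKO than in CTCF KO (-0.31 and -0.29) and than in WT (-0.33 and -0.27), and against WT both turned positive, at 0.09 and 0.07, with length and GC trends removed.

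A pair of complex I subunits went the other way. Ndufs4, an accessory subunit whose loss in mice causes a mitochondrial encephalopathy, had 87.0, 96.5 and 89.8 FPKM in DKO, 73.7, 74.2 and 73.1 in CTCF KO, and 81.5, 76.4 and 72.7 in WT. All DKO libraries lay above all others. It rose by 0.24 against WT (adjusted p = 0.0145) and by 0.30 against CTCF KO (adjusted p = 0.00547). Ndufa13, also known as GRIM-19, had 170, 162 and 157 FPKM in DKO, 105, 127 and 116 in CTCF KO, and 136, 130 and 149 in WT. It lay 0.24 above WT (adjusted p = 0.0398) and 0.49 above CTCF KO (adjusted p = 0.00125), and 28.5% of its transcript is shared with other genes. The rise of both against CTCF KO was kept in every alternative fit, while the authors' q-values called Ndufa13 but not Ndufs4. Against WT, Ndufs4 lost its call without DKO library 2 (adjusted p = 0.0521), and Ndufa13 was called in 3 of the 9 fits that left out 1 library (adjusted p up to 0.132) and not without the filter or the intensity trend, nor with length and GC trends removed (adjusted p = 0.596).

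Assembly factors build complex I without being part of it, and 2 of the 8 fell in DKO against WT, a share near the 21.9% of all tested genes. Ndufaf7, a methyltransferase that acts on a core subunit, had 22.2, 21.4 and 18.8 FPKM in DKO, 22.1, 21.3 and 23.3 in CTCF KO, and 27.3, 27.4 and 25.4 in WT (DKO against WT -0.35, adjusted p = 0.0103). Ndufaf4 averaged 9.26 ± 0.850 FPKM in DKO, 11.3 ± 0.975 in CTCF KO and 12.4 ± 0.543 in WT (DKO against WT -0.39, adjusted p = 0.018). Ndufaf3, which works with Ndufaf4 early in assembly, stood apart in CTCF KO, with 33.0, 30.2 and 32.7 FPKM in DKO, 19.1, 23.1 and 21.3 in CTCF KO, and 35.3, 35.7 and 33.1 in WT. Every CTCF KO library lay below every other library, by 0.69 against WT (SE 0.09, adjusted p = 0.000995), and DKO was 0.58 above CTCF KO (adjusted p = 0.000818). It was the 1 member of the 16 lower in CTCF KO whose call was kept in every alternative fit.

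Ndufaf2, another assembly factor, was lower in DKO than in CTCF KO by 0.69 (adjusted p = 0.0181), with 13.8, 10.5 and 17.2 FPKM in DKO, 22.9, 17.95 and 27.7 in CTCF KO, and 20.4, 17.6 and 18.5 in WT. That call was lost without DKO library 2 or CTCF KO library 3 (adjusted p up to 0.0686) and with length and GC trends removed (adjusted p = 0.077). Against WT its change of -0.45 did not pass the test (adjusted p = 0.0865). Ndufaf6, the assembly factor with the highest mean, averaged 24.2 ± 1.10 FPKM in DKO, 33.7 ± 6.797 in CTCF KO and 31.5 ± 8.18 in WT, with no call in any comparison.

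**Figure D4:**
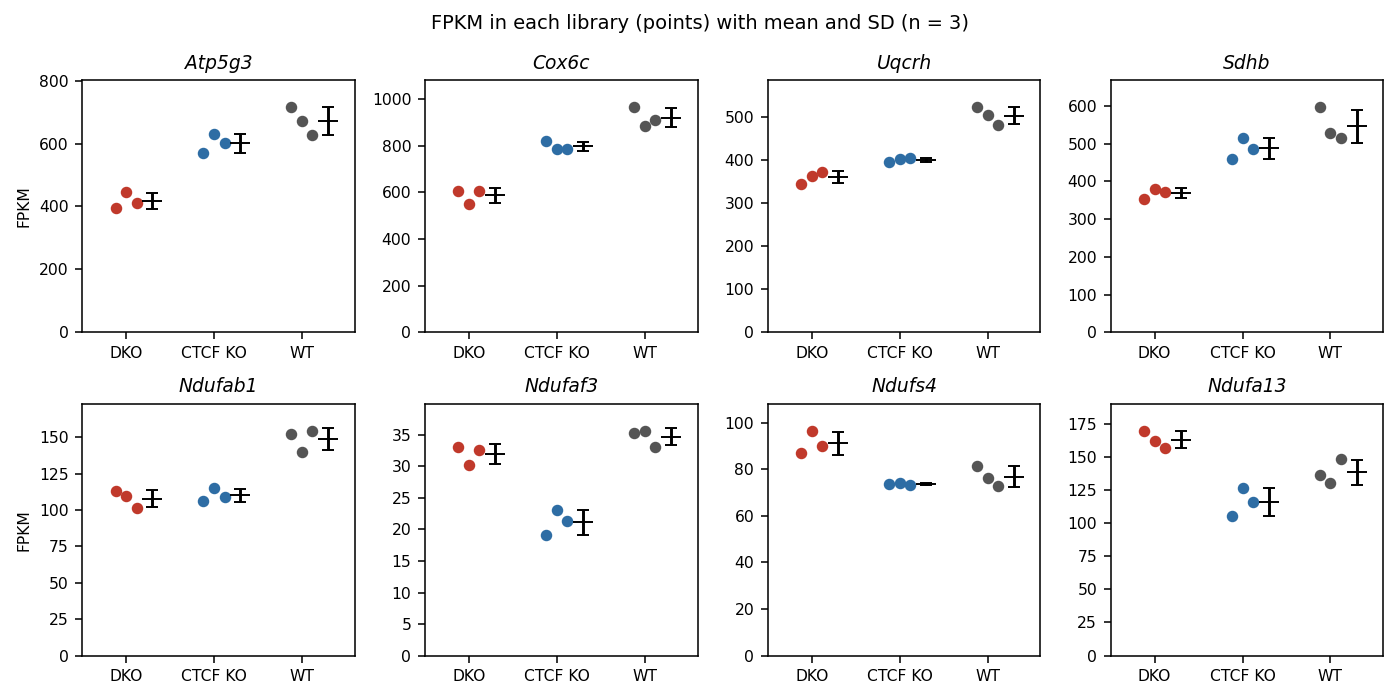
FPKM of 8 members (vertical axes, from 0) in DKO, CTCF KO and WT libraries (points) with mean and SD (n = 3). Atp5g3, Cox6c, Uqcrh and Sdhb are lowest in DKO, Ndufab1 is low in both knockouts, Ndufaf3 is low in CTCF KO alone among the 3 groups, at 19.1 to 23.1 FPKM, and Ndufs4 and Ndufa13 are highest in DKO.

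In complex II, which links the tricarboxylic acid cycle to the chain, 2 of 4 genes fell in DKO against WT. This is near the 46.0% lower among genes of at least 100 FPKM, a level that all 4 reached on average, where 21.9% of all tested genes were lower. Sdhb, the iron-sulfur subunit, had 354, 380 and 371 FPKM in DKO, 460, 516 and 487 in CTCF KO, and 597, 528 and 515 in WT. Its DKO libraries lay below all others, at -0.57 against WT (SE 0.07, adjusted p = 0.000193) and -0.40 against CTCF KO (adjusted p = 0.00162), and it was the member of complex II with the highest mean. Both calls were kept in every alternative fit.

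Sdha, the flavoprotein subunit, had 279, 301 and 315 FPKM in DKO, 381, 385 and 367 in CTCF KO, and 374, 354 and 297 in WT. WT library 3 overlapped the DKO libraries and the change against WT did not pass (-0.19, adjusted p = 0.0998), while it was lower than in CTCF KO by 0.34 (adjusted p = 0.0118). The membrane anchors were Sdhc, with 93.1, 108 and 93.9 FPKM in DKO, 96.1, 110 and 104 in CTCF KO, and 104, 107 and 117 in WT, and Sdhd, with 194, 215 and 204 in DKO, 220, 242 and 221 in CTCF KO, and 248, 225 and 228 in WT. Sdhd fell in DKO against WT by 0.19 (adjusted p = 0.0361), and Sdhc passed in no comparison. In CTCF KO against WT none of the 4 passed, and at an unadjusted p under 0.05 only Sdhb did (-0.16, adjusted p = 0.17).

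Complex III fell in 7 of its 8 tested genes in DKO against WT, with a median of -0.35. Of all tested genes 21.9% were lower, and of those of at least 100 FPKM 46.0%. All 5 accessory subunits were among the 7. Uqcrh, the hinge protein near cytochrome c1, had 344, 362 and 372 FPKM in DKO, 395, 402 and 404 in CTCF KO, and 522, 504 and 482 in WT. The 3 groups were separate and ordered, with changes of -0.48 in DKO (adjusted p = 6.38e-05) and -0.33 in CTCF KO against WT (adjusted p = 0.00273). DKO was also lower than CTCF KO, by 0.16 (adjusted p = 0.0323), which turned to 0.07 with length and GC trends removed. Of the 8 complex III genes only Uqcrh was called in CTCF KO against WT, where 11.9% of genes of at least 100 FPKM were lower.

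Uqcrq, a small subunit beside cytochrome b, had 333, 350 and 292 FPKM in DKO, 407, 455 and 416 in CTCF KO, and 488, 443 and 455 in WT. It fell by 0.51 in DKO against WT (adjusted p = 0.00075) and by 0.39 against CTCF KO (adjusted p = 0.00359), calls that every alternative fit kept, while CTCF KO overlapped WT. The authors' q-values called Uqcrq lower in DKO against WT but not against CTCF KO. Uqcr10 had 315, 339 and 288 FPKM in DKO, 361, 423 and 359 in CTCF KO, and 464, 422 and 470 in WT (DKO against WT -0.53, adjusted p = 0.00112). Uqcrfs1, the Rieske iron-sulfur protein that passes electrons on toward cytochrome c, had 115, 116 and 114 FPKM in DKO, 129, 129 and 122 in CTCF KO, and 138, 145 and 135 in WT. The 3 groups of Uqcrfs1 did not overlap, and only DKO against WT passed (-0.28, adjusted p = 0.00248).

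Uqcrb averaged 427 ± 25.9 FPKM in DKO, 527 ± 43.1 in CTCF KO and 555 ± 45.0 in WT, and fell in DKO against WT (-0.37, adjusted p = 0.00535). With length and GC trends removed Uqcrb was higher in DKO by 0.23 (adjusted p = 0.0453), and 43.4% of its transcript is shared with other genes. Uqcrc2, a core subunit, was lower in DKO, at 166 ± 8.88 FPKM, against 201 ± 16.4 in CTCF KO and 209 ± 10.8 in WT. Its partner Uqcrc1 had 524 ± 61.0 FPKM in DKO, 481 ± 42.6 in CTCF KO and 574 ± 60.5 in WT, and was the 1 complex III gene not called in DKO against WT (-0.13, adjusted p = 0.344). Uqcr11, the complex III gene with the highest mean, had 508 ± 38.0 FPKM in DKO, 593 ± 61.5 in CTCF KO and 608 ± 31.6 in WT (DKO against WT -0.26, adjusted p = 0.0354, and 0.0027 with length and GC trends removed).

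Complex IV fell in 10 of its 11 subunits of general expression in DKO against WT, and 5 of the 11 fell in CTCF KO. In DKO against WT 21.9% of all tested genes and 46.0% of those of at least 100 FPKM were lower. In CTCF KO against WT these shares were 6.37% and 11.9%. With length and GC trends removed the median of complex IV turned to 0.0107 in DKO against WT and to 0.0570 in DKO against CTCF KO, and Cox4i1 and Cox6c were the 2 of those 10 still called against WT. Cox6c, a small subunit that spans the membrane, had 605, 549 and 605 FPKM in DKO, 821, 788 and 785 in CTCF KO, and 965, 886 and 911 in WT. No groups overlapped, and its change of -0.65 in DKO against WT (SE 0.05, adjusted p = 1.89e-05) had the smallest adjusted p of all members. It fell by 0.21 in CTCF KO against WT (adjusted p = 0.0402), a difference of 0.0017 once length and GC trends were removed and called in 1 of the 9 fits that left out a library, and by 0.44 in DKO against CTCF KO (adjusted p = 0.000268). The calls in DKO against both other groups were kept in every alternative fit.

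Cox5b, which surrounds a zinc ion on the matrix side, had 391, 409 and 395 FPKM in DKO, 403, 414 and 401 in CTCF KO, and 540, 501 and 488 in WT. DKO and CTCF KO overlapped and both lay below WT, by 0.36 (adjusted p = 0.000511) and 0.33 (adjusted p = 0.00302). Cox5a, its partner on the matrix side, had 458, 450 and 444 FPKM in DKO, 479, 494 and 505 in CTCF KO, and 615, 566 and 563 in WT. It fell by 0.36 in DKO (adjusted p = 0.00037) and by 0.24 in CTCF KO (adjusted p = 0.0129), and the DKO value turned to 0.03 with length and GC trends removed. Transcripts of Cox5a and Cox5b share 32.0% and 25.9% of their sequence with other genes.

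Cox7b, an X-linked subunit, had 118, 120 and 111 FPKM in DKO, 135, 147 and 137 in CTCF KO, and 162, 157 and 163 in WT, without overlap between groups. It fell by 0.47 in DKO (adjusted p = 0.000191) and by 0.20 in CTCF KO (adjusted p = 0.045). The DKO call was lost with length and GC trends removed (adjusted p = 0.459), and the CTCF KO call was made in 1 of the 9 fits that left out a library (adjusted p up to 0.141). Ndufa4, the complex IV gene with the highest mean, had 751, 864 and 826 FPKM in DKO, 823, 874 and 888 in CTCF KO, and 1180, 1155 and 1010 in WT. Both knockouts lay below WT, DKO by 0.45 (adjusted p = 0.0012, and 0.11 above WT with length and GC trends removed) and CTCF KO by 0.37 (adjusted p = 0.0114).

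Cox4i1, a subunit that binds ATP as a regulator, had 778, 813 and 729 FPKM in DKO, 831, 882 and 879 in CTCF KO, and 985, 977 and 934 in WT. It was lower in DKO than in WT by 0.32 (adjusted p = 0.00128), in every alternative fit, and lower than in CTCF KO by 0.16 (adjusted p = 0.0386). Where complex IV has isoforms known from heart and skeletal muscle, lung or testis, the general isoform carried nearly all of the RNA in these cells. Cox6a1 averaged 675 ± 36.5 FPKM in DKO, 716 ± 52.1 in CTCF KO and 752 ± 7.61 in WT, and was the 1 general subunit not called (DKO against WT -0.16, adjusted p = 0.068).

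Its muscle isoform Cox6a2 had 0.515, 1.52 and 0.259 FPKM in DKO, 3.42, 2.27 and 4.06 in CTCF KO, and 1.36, 1.84 and 2.82 in WT, and was lower in DKO than in CTCF KO (-1.31, adjusted p = 0.00665). Cox6b1 averaged 827 ± 42.3 FPKM in DKO, 918 ± 61.4 in CTCF KO and 971 ± 8.86 in WT, and the testis isoform Cox6b2 had 3.24 ± 1.03, 1.56 ± 0.713 and 1.78 ± 1.57. Cox6b1 fell in DKO against WT (-0.23, adjusted p = 0.0119), but with length and GC trends removed it was higher by 0.14 (adjusted p = 0.0325). Cox7a2 averaged 175 ± 14.6 FPKM in DKO, 189 ± 15.05 in CTCF KO and 220 ± 24.6 in WT, the muscle isoform Cox7a1 had 2.06 ± 0.339, 1.11 ± 1.19 and 2.70 ± 1.80, and Cox7a2l, which joins complexes III and IV into supercomplexes, had 147 ± 9.26, 140 ± 4.74 and 144 ± 16.0. Cox7a2 fell in DKO against WT (-0.33, adjusted p = 0.0237, and 0.01 with length and GC trends removed), and Cox7a2l passed in no comparison. Cox8a, the general isoform beside Cox8b and Cox8c, averaged 522 ± 50.4 FPKM in DKO, 583 ± 42.3 in CTCF KO and 630 ± 33.1 in WT (DKO against WT -0.27, adjusted p = 0.025).

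Of the 5 complexes, the ATP synthase had the largest difference of its summed level between DKO and WT. Its 16 genes summed to 6919, 7211 and 6819 FPKM in DKO, 8224, 8849 and 8785 in CTCF KO, and 9553, 9278 and 9042 in WT, a difference from WT of -24.8% in DKO and of -7.23% in CTCF KO. In DKO against WT 14 fell and 1 rose (median -0.38): all 3 genes of the c ring, all 4 of the peripheral stalk, all 3 of the membrane part, and 4 of the 5 of the F1 head and central stalk. In DKO against CTCF KO 13 fell and 1 rose, and in CTCF KO against WT 4 fell. Of all tested genes 21.9% were lower in DKO against WT, 21.8% in DKO against CTCF KO and 6.37% in CTCF KO against WT. Among genes of at least 100 FPKM these shares were 46.0%, 40.8% and 11.9%.

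The c ring, the rotor that protons turn, is made of 1 protein encoded by 3 genes. Atp5g3 had 396, 446 and 410 FPKM in DKO, 571, 632 and 602 in CTCF KO, and 715, 673 and 626 in WT. Atp5g1 had 256, 249 and 225 FPKM in DKO, 275, 313 and 296 in CTCF KO, and 285, 280 and 291 in WT. Atp5g2 had 150, 145 and 151 FPKM in DKO, 161, 180 and 185 in CTCF KO, and 233, 214 and 210 in WT. In every library the order was Atp5g3, Atp5g1, Atp5g2, and DKO was lowest for all 3 genes.

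Against WT the changes in DKO were -0.69 for Atp5g3 (adjusted p = 5.29e-05), -0.56 for Atp5g2 (adjusted p = 0.000173) and -0.23 for Atp5g1 (adjusted p = 0.0207). Only Atp5g2 fell in CTCF KO against WT (-0.32, adjusted p = 0.013). Of its transcript 87.4% is shared with other genes, and whether this affected the placing of its reads was not tested. Atp5g3 was also 0.53 lower in DKO than in CTCF KO (adjusted p = 0.000337).

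The catalytic head makes the ATP. Atp5b, the catalytic beta subunit and the member with the highest mean, had 1123, 1212 and 1171 FPKM in DKO, 1535, 1642 and 1685 in CTCF KO, and 1670, 1559 and 1384 in WT. DKO lay below both other groups, which overlapped, by 0.39 against WT (adjusted p = 0.00226) and 0.47 against CTCF KO (adjusted p = 0.000879). Atp5c1, the gamma subunit of the central stalk, had 468, 490 and 487 FPKM in DKO, 543, 552 and 598 in CTCF KO, and 714, 712 and 621 in WT. It fell by 0.50 in DKO (adjusted p = 0.000327) and by 0.27 in CTCF KO against WT (adjusted p = 0.0266). Atp5d, the delta subunit, averaged 384 ± 16.1 FPKM in DKO, 408 ± 27.3 in CTCF KO and 425 ± 3.55 in WT, and was the 1 gene of the head and central stalk that was not called (DKO against WT -0.15, adjusted p = 0.0653).

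In the peripheral stalk, which holds the head still against the rotor, Atp5j had 400, 409 and 407 FPKM in DKO, 507, 495 and 472 in CTCF KO, and 565, 618 and 609 in WT. The 3 groups were separate, with falls of 0.56 in DKO (SE 0.05, adjusted p = 2.85e-05) and 0.28 in CTCF KO against WT (adjusted p = 0.00629). The promoter window shown for Atp5j held a match of NRF1, YY1 and ETS each, while another RefSeq promoter of the gene held no match of the 5 motifs. Atp5o had 465, 501 and 454 FPKM in DKO, 566, 639 and 619 in CTCF KO, and 637, 608 and 570 in WT, so CTCF KO overlapped WT and DKO lay below both. It fell in DKO by 0.35 against WT (adjusted p = 0.00249) and by 0.36 against CTCF KO (adjusted p = 0.00239). The call against WT was lost with length and GC trends removed (adjusted p = 0.591), and 34.0% of its transcript is shared with other genes. Atp5k, in the membrane part, had 521, 461 and 430 FPKM in DKO, 476, 464 and 489 in CTCF KO, and 585, 590 and 613 in WT. It fell in DKO (-0.34, adjusted p = 0.00344, and 0.17 with length and GC trends removed) and in CTCF KO (-0.32, adjusted p = 0.0143).

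Atp5s, a coupling factor (now named Dmac2l) at a level far below the structural subunits, had 8.06, 7.15 and 8.54 FPKM in DKO, 5.27, 5.23 and 5.59 in CTCF KO, and 6.10, 5.27 and 4.27 in WT. It was the 1 gene of complex V to rise in DKO, by 0.53 against WT (adjusted p = 0.012) and 0.48 against CTCF KO (adjusted p = 0.0192). The rise against WT was kept in each of the 9 fits that left out 1 library, but not under quantile normalization (adjusted p = 0.0859). The call against CTCF KO was lost without CTCF KO library 2, DKO library 1 or DKO library 3, with an adjusted p of up to 0.0672, and under quantile normalization (adjusted p = 0.112).

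**Figure D5:**
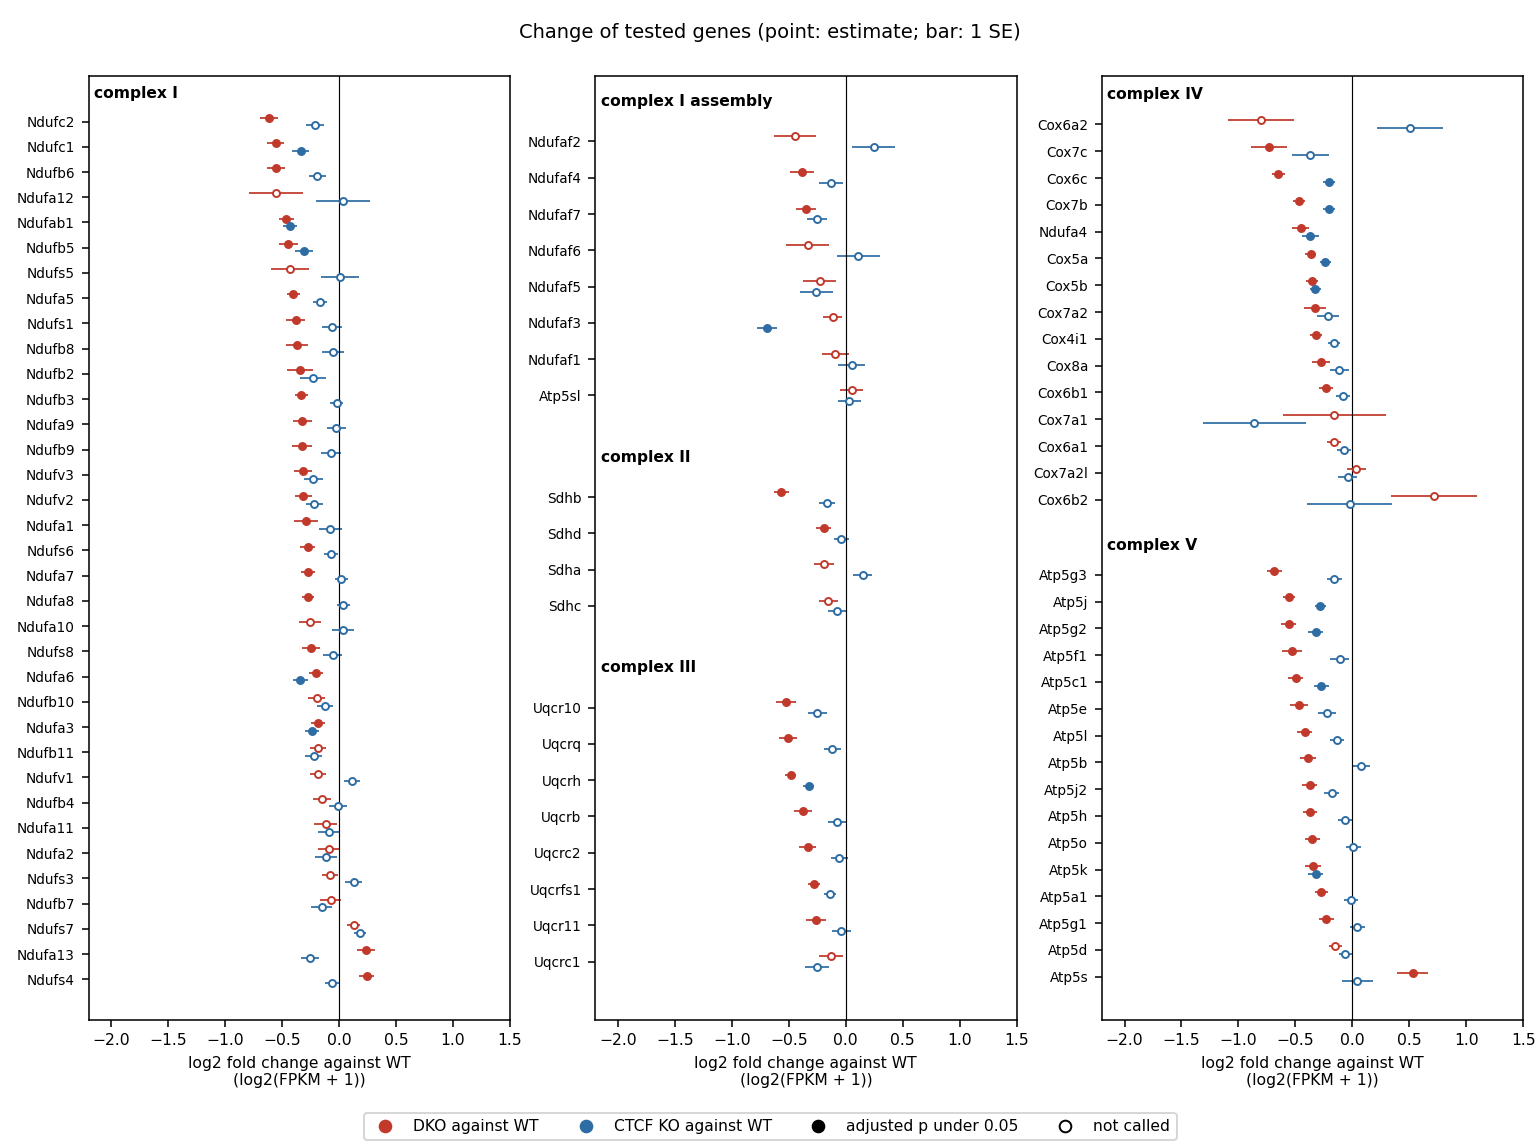
Log2 fold change on log2(FPKM + 1) (horizontal axis, bars 1 SE) of 86 tested members against WT, for DKO (red) and CTCF KO (blue), by complex, with filled points for an adjusted p under 0.05. The red points lie left of 0 for 79 of 86 genes and the blue points for 68 of 86, and filled red points right of 0 are Ndufs4, Ndufa13 and Atp5s.

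Leaving out 1 library at a time, 43 of the 57 genes that fell in DKO against WT were called in all 9 fits, and the other 14 lost the call without at least 1 library. The fit without DKO library 3 kept the fewest of the 57, namely 46, and the fit without WT library 2 kept 48. Of the 16 that fell in CTCF KO, 8 were called in all 9 (Atp5g2, Atp5j, Cox5a, Cox5b, Ndufa6, Ndufab1, Ndufaf3 and Uqcrh). Of the 57, 12 were called in every alternative fit: Atp5b, Atp5c1, Atp5f1, Atp5g2, Atp5g3, Atp5j, Cox4i1, Cox6c, Ndufab1, Ndufs1, Sdhb and Uqcrq. The authors' q-values are not counted among these fits, and they called all of the 12 except Ndufab1. In DKO against CTCF KO 13 of 41 were called in every alternative fit that tested them, among them Atp5b, Atp5g3, Cox6c, Sdha and Sdhb, with Cox6a2 not tested at a mean of at least 5 FPKM. Of these 13, the authors' q-values did not call Atp5g1, Cox6a2, Ndufa8, Ndufv1 and Uqcrq. Many of these genes share sequence with others: 48 of the 87 have at least 1 stretch of 50 bases that also occurs in a transcript of another gene or pseudogene. Where that other gene lies was not checked, so such a stretch does not show a copy elsewhere in the genome. Of the 39 that share none, 21 fell and 2 rose in DKO against WT, and of the 48 that share some, 36 fell and 1 rose. Among the 12 genes lower against WT in every alternative fit, Atp5g2 shares 87.4% of its transcript with other genes and Atp5f1 38.7%.

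Neighbouring mitochondrial genes were described from lists made alongside the set, and their counts are to be read against 21.9% of all tested genes lower and 18.5% higher in DKO against WT, and 6.37% lower in CTCF KO against WT. In DKO against WT, carriers of the inner and outer membrane fell in 9 of 11 tested genes, led by Slc25a5, an ADP/ATP exchanger, at 821 ± 60.7 FPKM in DKO and 1402 ± 98.5 in WT (-0.77, adjusted p = 2.85e-05). Ucp2, a carrier of the uncoupling protein family, and Vdac1, a channel of the outer membrane, fell by 0.56 and 0.70. Enzymes of the tricarboxylic acid cycle fell in 7 of 13, with Fh1 (fumarase) at 55.5 ± 3.87 FPKM in DKO and 90.3 ± 3.12 in WT (-0.69, adjusted p = 3.95e-05), Cs (citrate synthase) at -0.36 and Idh3a at -0.23. In CTCF KO against WT 1 of the 11 and 1 of the 13 fell, near the share of all tested genes: Mpc2, part of the pyruvate carrier (-0.45), and Idh3a (-0.21).

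Of 40 tested assembly factors outside the set, 7 were lower and 1 higher in DKO against WT, a share of lower genes no larger than that of all tested genes. Atpif1, the inhibitor of ATP hydrolysis by complex V, had 90.6 ± 3.73 FPKM in DKO and 154 ± 7.21 in WT (-0.76, adjusted p = 8.72e-06), followed by Tmem126a, a complex I factor (-0.53), and Higd1a (-0.41). In CTCF KO 3 of the 40 fell, again near the share of all tested genes: Tmem126a (-0.38), Higd1a (-0.31) and Cox20 (-0.31). Cytochrome c, Cycs, fell in DKO, at 41.3 ± 1.69 FPKM in DKO and 52.4 ± 1.38 in WT (-0.34, adjusted p = 0.00441), while Cyc1 passed only against CTCF KO (-0.31, adjusted p = 0.00295).

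Of 9 tested regulators of mitochondrial biogenesis, 1 rose in DKO against WT, Esrra, a nuclear receptor, at 5.42 ± 0.203 FPKM in DKO and 2.07 ± 1.82 in WT (1.22, adjusted p = 0.0264), and none of the 9 fell. Myc fell in CTCF KO against WT (-0.27, adjusted p = 0.0365) and was higher in DKO than in CTCF KO (0.24). Genes that maintain and transcribe mitochondrial DNA were lower in DKO in 5 of 13 cases, against 21.9% of all tested genes, and higher in 2, against 18.5%. Polg, the polymerase, fell by 0.71 (adjusted p = 0.00107), Tefm, an elongation factor, fell by 0.55 (adjusted p = 0.0012), and Slirp, which stabilizes mitochondrial transcripts, fell by 0.37 (adjusted p = 0.00795).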

How the data were processed

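RNA-seq values of 9 libraries of sorted mouse CD8 T cells were used as deposited. The authors deposited a table with FPKM per gene and library, and with p-values and q-values of their own comparisons; per the submitters' processing notes the tools were FastQC, TopHat2 2.1.0 and Cuffdiff 2.2.1, and the builds mm9 and mm10. The library scaling and annotation are not given in the sources used here. Only 5 of the 92 members start near their RefSeq GRCm38.p6 position, so coordinates of the table are not printed, and promoter positions are RefSeq's. Depth is unknown, so no counting error is given. Columns of DKO libraries were tied to their group only, and library numbers 1 to 3 are those of the table.

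Genes that reached 1 FPKM in 3 or more of 9 libraries were fitted on log2(FPKM + 1), which understates changes of low genes, with 1 mean per group (limma 3.58.1, R 4.3.3, empirical Bayes with intensity trend). P-values were two-sided and adjusted by the Benjamini-Hochberg method over the 10172 tested genes. The code was tested on simulated data. Alternatives were pseudocount 0.1, no filter, a mean of at least 5 FPKM, quantile normalization, 6 libraries, no trend, array weights, each library left out, a replicate block and the authors' q-values. Rescaling each library to an equal sum and removal of length and GC trends (GENCODE M21 transcripts, trends fitted on non-members) were added after the data were seen. The authors' q-values are no fit and are not meant by "alternative fit". Sequence sharing was counted as 50-base stretches found in transcripts of another gene on either strand, wherever that gene lies. The values of 1 member are not reported singly here. The members and lists were chosen with earlier results of these data known. Named with values were, per complex and comparison, up to 4 called genes per direction by adjusted p, the gene with the highest mean, isoform sets and all of complex II, and up to 3 called genes per other list.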

Additional observations from a re-analysis of the deposited data

How the results depend on the processing

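The unknown depth and 3 libraries per group limit the precision. Leaving out single libraries gave 10 to 15 members lower in CTCF KO against WT, 48 to 59 lower and 1 to 3 higher in DKO against WT (1 without DKO library 2), and 27 to 44 lower and 3 to 4 higher in DKO against CTCF KO. Under a pseudocount of 0.1, no filter, a mean of at least 5 FPKM or only the 6 libraries compared, every count of members was within 1.5 times its main value.

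Quantile normalization gave medians over the members of -0.0553 in CTCF KO against WT, -0.17 in DKO against WT and -0.12 in DKO against CTCF KO, and 10 lower and 1 higher in CTCF KO. Without the intensity trend 10 were lower in CTCF KO, and with array weights 26 were lower and 1 higher, with 1132 of all tested genes lower and 1147 higher against 648 and 588. Rescaling to the same sum moved the median of all tested genes in DKO against WT to 0.11 and that of the members to -0.22, gave -0.15 for DKO against CTCF KO, and 1 member higher in CTCF KO. The authors' deposited q-values called 2 lower in CTCF KO, 29 lower and 0 higher in DKO against WT, and 9 lower and 1 higher in DKO against CTCF KO. Of all tested genes in CTCF KO against WT, leaving out 1 library left 385 to 633 lower and 308 to 548 higher. For these settings the cause was not tested.

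Same-numbered libraries of CTCF KO and WT deviated from their group means with correlations of -0.619, 0.158 and -0.447, which gave no sign of a pairing by number. With 3 libraries per group these values cannot exclude a pairing. With a replicate block 1 member was lower (202 of all genes lower and 95 higher). For comparisons with DKO no paired analysis was possible because the DKO columns carry no number tied to a sample.

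Removal of length and GC trends, chosen after seeing the data like the rescaling, left medians of the members of -0.0068 in CTCF KO against WT, -0.0826 in DKO against WT and -0.0847 in DKO against CTCF KO. In CTCF KO against WT 4 members were lower, where 421 of 9791 genes were. In DKO against WT 19 members were lower and 6 higher, where 1983 and 1519 of the 9791 genes were. In DKO against CTCF KO 16 members were lower and 8 higher, where 2275 and 1386 of the 9791 genes were. Medians that turned positive were those of complex I in CTCF KO (0.0159) and of complex IV in DKO against WT (0.0107) and against CTCF KO (0.0570). Genes that turned positive in DKO against WT were Ndufa1 (0.29), Ndufa3 (0.25), Uqcrb (0.23), Atp5k (0.17), Ndufa6 (0.14), Cox6b1 (0.14), Ndufa4 (0.11), Ndufb3 (0.0931), Ndufa7 (0.0716), Atp5l (0.0624), Ndufs6 (0.0369), Cox5a (0.0301), Cox7a2 (0.0107) and Uqcr11 (0.0027). In DKO against CTCF KO they were Uqcrh (0.0696), Uqcrb (0.0163) and Atp5e (0.0060), and in CTCF KO against WT Cox6c (0.0017). By its construction this setting moves transcripts of like length and GC content alike, and the cause of these changes was not tested further.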
